A study of Drosophila melanogaster with 2 samples.

Results

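Of 1137 peaks of the tagged protein CG8478 at single autosomal promoters, 678 (59.6%, 95% Wilson interval 56.8 to 62.4) held the core of the DNA replication-related element (DRE), and these 678 peaks are described here. A single promoter peak has its summit within 500 bp of the start site of a protein-coding transcript and does not lie within 500 bp of a divergent gene pair, in which a minus-strand start lies at most 500 bp to the left of a plus-strand start of another gene. The core is the 6-letter word TATCGA, read on either strand within 100 bp of the summit on both sides. The 678 peaks were 23.3% of the 2904 peaks on the main chromosome arms in the conservative list, the authors' list of peaks that repeat between both replicates. Because the core chose the peaks, its presence in them is not a result. Its number, form, spacing and place, the peak signal and the genes are what the data add.

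The study used intact Drosophila melanogaster embryos from a collection of 0 to 24 h. The flies carry an insertion that makes a fusion of CG8478 with eGFP, a green fluorescent protein, and chromatin was pulled down with an antibody against GFP and sequenced (ChIP-seq). There is 1 group with 2 biological replicates, so no conditions are compared, and the values of each replicate stand in for the error of a measurement. Whole embryos pool all cell types and all stages of the collection. The labels name a control experiment that was not analysed here, and they do not say which promoter drives the fusion.

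The DRE is a short palindrome found close to the start sites of many housekeeping genes in flies. It is bound by Dref, a zinc-finger factor first studied at genes for DNA replication and cell growth, and the insulator protein BEAF-32 recognises a word that overlaps it. Both read the same core, so the letters alone do not show which protein sits on a site.

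The sequences that carry the description come first. A site here is 1 core; where the core is read on both strands at 1 place, the 8 letters are the full palindrome TATCGATA, counted as 1 site, and any other site is called partial. Lower case marks the surrounding promoter and capitals mark the core or the full palindrome, in which TCGATA is the core on the other strand. Each line runs 5′ to 3′ on the strand of the gene, in build dm6 (RefSeq Release 6), and is trimmed to bases outside annotated transcripts, so a site beyond the start is not shown. The first set shows promoters with the highest signals, to show that these do not share 1 layout: they hold 1 to 3 sites, full or partial, in both orientations.
CG11857, chr3R:25258799-25258840, plus strand: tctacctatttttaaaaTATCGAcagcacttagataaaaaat
SMC1, chr3R:24058182-24058274, plus strand: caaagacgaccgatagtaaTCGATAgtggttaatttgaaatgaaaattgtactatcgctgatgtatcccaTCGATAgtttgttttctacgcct
Creld, chr2L:102308-102379, plus strand: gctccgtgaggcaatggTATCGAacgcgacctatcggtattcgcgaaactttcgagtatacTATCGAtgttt
Sumo, chr2L:6967645-6967689, minus strand: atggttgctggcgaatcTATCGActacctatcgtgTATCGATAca
jagn, chr3R:5779266-5779307, plus strand: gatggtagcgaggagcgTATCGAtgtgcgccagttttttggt
mtSSB, chr3R:16205251-16205288, minus strand: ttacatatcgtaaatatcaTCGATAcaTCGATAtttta
Pp2A-29B, chr2L:8365960-8366026, plus strand: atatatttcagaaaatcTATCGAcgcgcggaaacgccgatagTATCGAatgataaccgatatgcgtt

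The second set shows promoters with the most sites, to show how densely the cores can lie, with neighbouring cores that share letters in ref(2)P and Sgt1.
ref(2)P, chr2L:19542298-19542467, plus strand: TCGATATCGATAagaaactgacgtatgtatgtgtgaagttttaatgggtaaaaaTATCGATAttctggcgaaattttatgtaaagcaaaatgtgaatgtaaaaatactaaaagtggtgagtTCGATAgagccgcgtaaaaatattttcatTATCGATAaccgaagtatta
CkIIalpha-i1, chr3L:15816892-15816978, plus strand: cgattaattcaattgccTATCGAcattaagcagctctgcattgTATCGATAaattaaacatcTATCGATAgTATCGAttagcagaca
Sgt1, chr3R:8305275-8305383, minus strand: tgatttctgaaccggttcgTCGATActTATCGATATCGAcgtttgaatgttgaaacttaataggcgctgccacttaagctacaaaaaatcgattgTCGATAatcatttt
ssp, chr3L:12118172-12118256, plus strand: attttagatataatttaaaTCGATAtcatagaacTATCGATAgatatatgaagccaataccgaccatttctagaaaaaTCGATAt
Phb1, chr2L:19123870-19123946, minus strand: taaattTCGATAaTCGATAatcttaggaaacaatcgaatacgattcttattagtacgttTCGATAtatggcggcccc

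The third set shows promoters with several full palindromes, which were uncommon: 34 of the 678 peaks held 2 and 1 peak held 3.
PolA1, chr3R:21671751-21671830, minus strand: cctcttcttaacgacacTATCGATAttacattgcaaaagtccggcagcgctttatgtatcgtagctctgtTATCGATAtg
Efa6, chr3R:22587602-22587686, plus strand: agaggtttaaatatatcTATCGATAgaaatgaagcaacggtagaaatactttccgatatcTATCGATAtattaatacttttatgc
Pep, chr3L:17645052-17645188, minus strand: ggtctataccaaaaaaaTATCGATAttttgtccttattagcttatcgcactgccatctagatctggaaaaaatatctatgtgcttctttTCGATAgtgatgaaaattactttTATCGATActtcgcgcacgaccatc
CG6325, chr3R:10407286-10407396, minus strand: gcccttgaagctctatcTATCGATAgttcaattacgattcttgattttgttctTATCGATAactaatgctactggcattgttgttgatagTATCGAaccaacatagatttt

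The 678 peaks held 1121 sites. A single site was present in 338 peaks (49.9%, 95% interval 46.1 to 53.6), 2 sites in 251 (37.0%), 3 in 77 (11.4%), 4 in 10 and 5 in 2. The 2 peaks with 5 sites were at ref(2)P, which encodes the fly p62 autophagy receptor, and at CG3702, whose 5 sites were all partial. Together, 340 peaks (50.1%, 46.4 to 53.9) held more than 1 site. In each replicate's own peak list this share was 51.1% and 49.9% for replicates 1 and 2.

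Among core-holding windows, more than 1 site was more frequent at these peaks than at start sites in general, at unbound promoters or beside the summits; no test was run. Of all windows of the same length centred on autosomal protein-coding start sites, 19.1% (3120 of 16298) held the core, and 28.1% of those held more than 1 site. At single promoters with no peak, 11.4% (857 of 7529) held a site from 150 bp upstream to 50 bp downstream of the 5′-most start, and 14.6% of those held more than 1. In windows 1000 bp to the left and right of the summits the core was in 8.18% and 7.83%, and more than 1 site was in 6.45% and 2.25% of those. Peaks at divergent autosomal pairs held the core in 68.1% (520 of 764) and more than 1 site in 40.2% of those. Single promoter peaks of the X chromosome were closest to the autosomal ones in copies, with the core in 70.4% (235 of 334) and more than 1 site in 52.3% of those.

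A full palindrome was present in 333 of the 678 peaks (49.1%, 95% interval 45.4 to 52.9). In the replicates' own lists the share was 49.0% and 48.4%. Among core-holding windows it was 30.4% at all start sites, 14.7% at single promoters with no peak, and 4.30% and 3.37% to the left and right of the summits. Other core-holding peaks were closer, with 46.2% at divergent autosomal pairs and 47.2% at single promoters of the X chromosome. At autosomal peaks over 500 bp from a start it was 37.6%. The share is thus not particular to the 678 peaks. Of the 1121 sites, 369 were full and 752 partial.

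The letters that follow the 6-letter core also differed between bound and unbound promoters, a comparison chosen after seeing the data. Over the 1117 sites at the 678 peaks whose 8 letters lay inside the window, TATCGATA made up 33.0%, TATCGATT 18.4% and TATCGATG 15.8%. Over 982 sites at single promoters with no peak these shares were 13.3%, 17.6% and 5.60%. A T as the 7th letter was present at 69.6% of the sites of the peaks and at 40.7% of the others. TATCGAAA went the other way, with 6.09% against 12.9%.

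The share of all promoters that have a peak was then counted by the sites in their sequence. This count was chosen after seeing the data and uses 8550 non-divergent autosomal promoters, 1 per gene, of which 11.9% (1021) had a conservative peak within 500 bp of the 5′-most start. With no site from 150 bp upstream to 50 bp downstream, 5.46% (385 of 7057, interval 4.95 to 6.01) had a peak. With 1 site the share was 30.6% (323 of 1055, 27.9 to 33.5), with 2 sites 66.4% (231 of 348, 61.3 to 71.1) and with 3 sites 91.5% (75 of 82, 83.4 to 95.8). With 4 or more sites it was 7 of 8 promoters. The order from 0 to 3 sites was the same in both replicates' own lists: 3.95%, 27.0%, 60.1% and 90.2% in replicate 1, and 3.91%, 26.2%, 56.0% and 89.0% in replicate 2. It was also the same on each of the 4 large autosomal arms, where the share with 1 site ran from 28.3% to 32.6%, with 2 sites from 61.7% to 71.4% and with 3 sites from 85.7% to 100%.

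**Figure D1:**
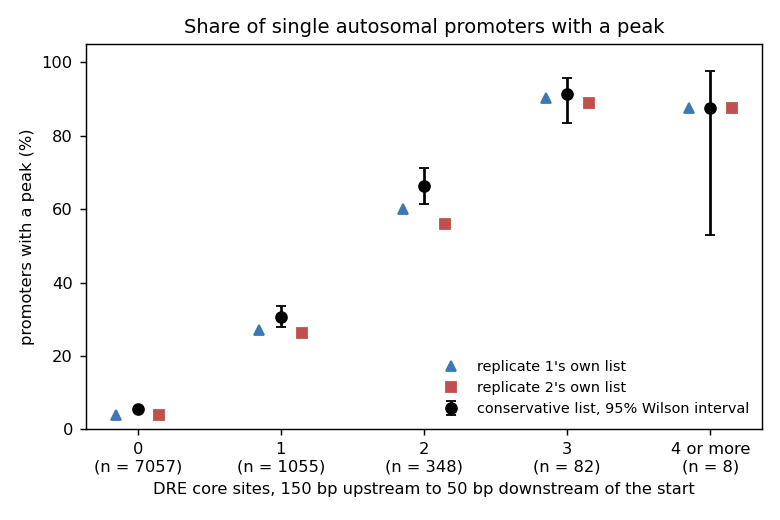
Share of non-divergent autosomal promoters with a peak within 500 bp (vertical axis, %) by number of core sites near the 5′-most start (horizontal axis); black points are the conservative list with 95% Wilson intervals, triangles and squares the replicates' own lists. The share runs from 5.46% with 0 sites to 91.5% with 3, and the replicates keep that order.

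The form of a lone site went with the share as well. A lone full palindrome had a peak at 58.8% of promoters (130 of 221, interval 52.2 to 65.1), and a lone partial site at 23.1% (193 of 834, 20.4 to 26.1). The replicates' own lists gave 52.0% in both for the full palindrome, and 20.4% and 19.3% for the partial site. Among promoters with 2 sites, 81.0% (136 of 168) had a peak where at least 1 was full, and 52.8% (95 of 180) where neither was. By octamer, a lone TATCGATG had a peak at 49.4% (42 of 85), TATCGATT at 34.9% (66 of 189) and TATCGATC at 21.1% (8 of 38). Of those with another 7th letter, TATCGAGA with 26.1% (6 of 23) and TATCGACA with 25% (8 of 32) were above TATCGATC. The lowest of all was TATCGAGT with 2.70% (1 of 37). Grouped by the 7th letter, T gave 46.2% (246 of 533, of which 221 are the full palindrome promoters) and any other letter 14.9% (77 of 516). No other protein on these sites was measured.

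A few promoters had many sites and no conservative peak. Of the 8 non-divergent promoters with at least 3 sites and no peak within 500 bp, 6 had ranked signals of at most 46.8, in lists that hold peaks below the threshold as well, and Dlip3 had no entry in replicate 1. Of these 6, CG15439 had a summit of replicate 1's own thresholded list within 500 bp of the start, and LanB1 one of the optimal list. Higher ranked signals were found at flfl, which encodes a regulatory subunit of protein phosphatase 4, and at CG42788. At flfl, with 3 sites of which 2 were full, the ranked signals were 197 in replicate 1 and 168 in replicate 2, within the range of the bound promoters. CG42788, with 3 partial sites, had ranked signals of 89.0 and 145. Neither of these 2 had a summit of a thresholded list used here within 500 bp of the start. These promoters were singled out after their values were seen.

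Signal is the peak height that the authors' peak caller gave, with no stated scale, so it is compared within a list. In whole embryos, binding in fewer cells and weaker binding per cell cannot be told apart. Over the 678 peaks the median conservative signal was 189, with an interquartile range of 107 to 307. Over the 459 single promoter peaks without the core it was 75.6, with a range of 57.6 to 141. The medians in replicate 1 were 100.8 and 47.2, and in replicate 2 they were 90.7 and 40.2. The ratio of medians was thus 2.49 in the conservative list, 2.13 in replicate 1 and 2.25 in replicate 2, while the interquartile ranges of the groups overlapped in all of them. Among the upper 50% of single promoter peaks by signal, the log2 ratio was 0.19 against 1.32 over all of them; that subset was chosen on the signal itself. The peaks of both groups come from a thresholded list, so weaker peaks are cut off in both. The replicate signals at these peaks come from ranked lists that also hold entries under the threshold. Some entries are side by side: 14 of the 678 peaks and 58 of the 459 without the core overlapped a conservative peak of higher signal, so they can share a replicate's entry and its value. Without these peaks, a choice made after seeing the data, the ratio of medians was 2.31 in the conservative list, 2.16 in replicate 1 and 2.29 in replicate 2.

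Median signal was higher with more sites from 0 to 3, with wide overlap between peaks. Median conservative signals were 75.6 with 0 sites, 149.7 with 1, 204 with 2 and 291 with 3. In replicate 1 they were 47.2, 80.9, 106 and 153, and in replicate 2 they were 40.2, 77.2, 98.0 and 146. The 12 peaks with 4 or 5 sites had a median of 236, below that of 3 sites. Among peaks with a summit within 100 bp of the start the order held, with 82.6, 154, 215 and 291. Among those in both replicates' own lists it held with smaller steps, at 157, 199.7, 237 and 308. Spearman's rho between the number of sites and signal over the 678 peaks was 0.25, and 0.26 and 0.19 with the signals of replicates 1 and 2, as descriptions over peaks that share libraries. Between the replicates, the signals had a rho of 0.89 over the 673 peaks with a value in both, and an SD of the log2 ratio of 0.48. The conservative list keeps peaks that repeat between replicates, so this agreement is partly set by the choice of peaks.

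**Figure D2:**
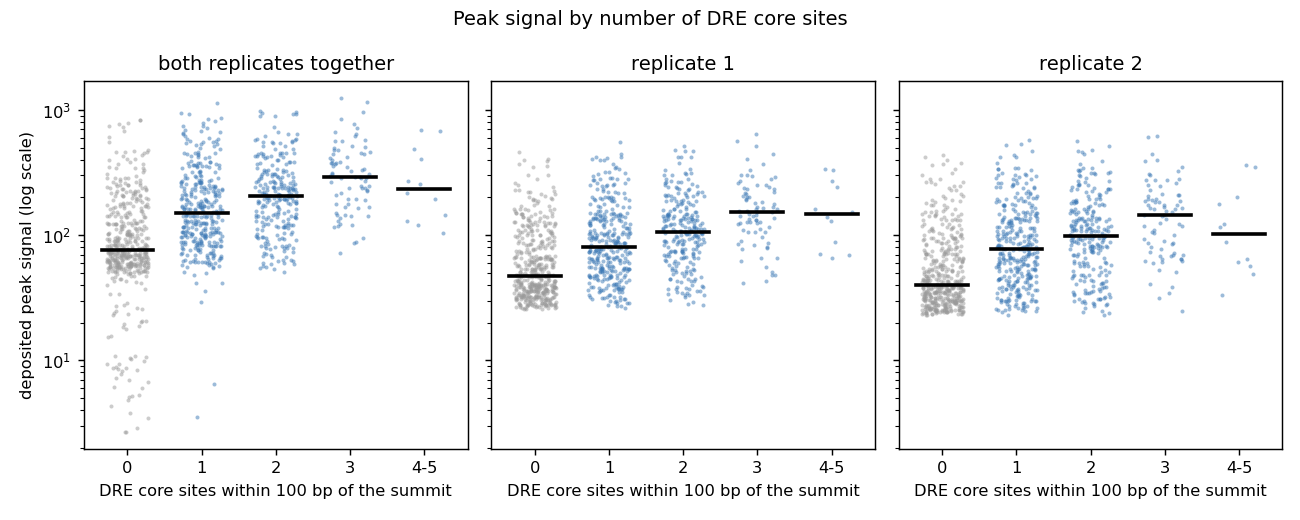
Deposited peak signal (vertical axis, log scale) of the 1137 single autosomal promoter peaks by number of core sites within 100 bp of the summit (horizontal axis), for the conservative list and each replicate's ranked list; each point is a peak and black bars are medians. The medians climb from 75.6 to 291 between 0 and 3 sites in the conservative list, and the clouds of points overlap.

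Among called peaks, those with full and partial sites had medians close to each other. Peaks with 1 full palindrome and nothing else had a median of 148 (136 peaks), and those with 1 partial site had 149.7 (202 peaks). In replicate 1 the medians were 80.9 and 79.9, and in replicate 2 they were 79.8 and 72.8. With 2 sites, the medians were 195 where both were partial, 217 where 1 was full and 183 where both were full (21 peaks). None of these differences was tested, and the interquartile ranges overlapped.

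The core-holding share was larger at higher signal. When the 1137 single promoter peaks were divided into 5 groups of nearly equal size by signal, the core was in 84.6%, 75.8%, 70.2%, 46.3% and 21.1%, from the highest group to the lowest. More than 1 site was in 52.6%, 44.5%, 29.4%, 16.7% and 6.17%. By arm the core was in 56.1% of single promoter peaks on 2L, 56.4% on 2R, 58.1% on 3L, 65.6% on 3R and in 11 of 12 on the small chromosome 4. The intervals of the large arms overlapped, with 49.97 to 62.1 on 2L and 60.2 to 70.7 on 3R.

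Peaks with the core were found more often in both replicates' own lists. Overlap with a peak of both lists, by at least 1 bp, was found for 64.4% of all single promoter peaks, for 78.2% (74.9 to 81.1) of those with the core and for 44.0% (39.5 to 48.6) of those without it. The share was 72.8% with 1 site, 79.7% with 2 and 93.5% with 3, and all 12 peaks with 4 or 5 sites were in both. Median signal also rose from 1 to 3 sites but was lower with 4 or 5, and its part in this was not tested.

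Genes of varied function were among those with the highest signals. At Capr, which encodes a caprin-family translational regulator, the conservative signal was 1165, with 567 in replicate 1 and 605 in replicate 2, over 3 partial sites. CG11857 had 1129.9, with 555 and 580.4, over the lone partial site printed above. SMC1, a core subunit of cohesin, had 983, with 473 and 511, over 2 partial sites at 85 and 34 bp upstream of the start. These 3 peaks rank far above the median of 189 with no full palindrome among them.

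Creld had a signal of 971, with 512 and 448 in the replicates, and 3 sites of which 1 was full. Sumo, the small ubiquitin-like modifier, had 949.9, with 417 and 568, and a full palindrome 6 bp upstream of the start. jagn, which encodes a membrane protein of the endoplasmic reticulum, had 942, with 424 and 521, over 1 partial site. Replicate 2 was the higher one at Sumo and jagn and the lower one at Creld. mtSSB, which coats single-stranded DNA in mitochondria and is a reported Dref target, had 931, with 473 and 448, and its 2 partial sites lay 8 bp apart. Pp2A-29B, which encodes the scaffold of the phosphatase PP2A, had 929.7, with 513 and 389. bun, a TSC22-family regulator, had 929, with 409.97 and 536, over a lone partial site 133 bp upstream. The other genes named by rank were CG8613, CG11030, Scsalpha1, Pcif1 and CG11964, with signals from 843 to 957. Scsalpha1 encodes the alpha subunit of succinyl-CoA synthetase, and Pcif1 a factor that binds the phosphorylated tail of RNA polymerase II.

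The number of sites and the rank by signal often went apart. Among the peaks with most sites, ref(2)P with 5 sites had 129.6, with 70.4 and 48.6 in the replicates. CG3702 with 5 had 119.5, with 65.6 in replicate 1 and 64.6 in replicate 2. spin, which encodes a lysosomal transporter, had 4 sites and 688, with 336 and 365. CG9135 had 4 partial sites, all on the strand opposite the gene, and 682. pug had 4 sites and 486, and CkIIalpha-i1, which interacts with casein kinase 2, had 4 sites and 405.3. GckIII, a Ste20-like kinase, had 4 sites and 273, and PI31, a regulator of the proteasome, had 4 and 254. Galphaq and ssp, also with 4 sites, had 218 and 196, and Phb1 and Sgt1 had 145 and 104.7. Both peaks with 5 sites thus lay below the median of 189, as did 2 of the 10 with 4 sites.

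Among peaks with at least 2 full palindromes, the highest was at Pep, whose product is found on chromosome puffs and in ribonucleoprotein, with a signal of 766 and 367 and 391 in the replicates. spin and snama followed with 688 and 615, RpS24 with 574 and hppy, a MAP4K-family kinase, with 551. The 21 peaks with exactly 2 sites, both full, had a median of 183, close to that of all 678.

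Sites clustered under the summit. The nearest site lay a median of 17.5 bp from it (interquartile range 8 to 36), and 56.3% of peaks had a site within 20 bp. The medians in the replicates' own lists were 18 and 16 bp. The distance was shorter with more sites, from 26 bp with 1 site to 12 with 2 and 9 with 3, as it must to some extent when more sites are available. From the highest to the lowest of 4 groups by signal it was 14, 12, 20 and 27 bp. A lone full palindrome lay a median of 22.5 bp from the summit and a lone partial site 28.5 bp. In the 176 peaks with both kinds of site, the nearest was full in 49.4% (42.1 to 56.8), while 47.7% of their sites were full on average.

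**Figure D3:**
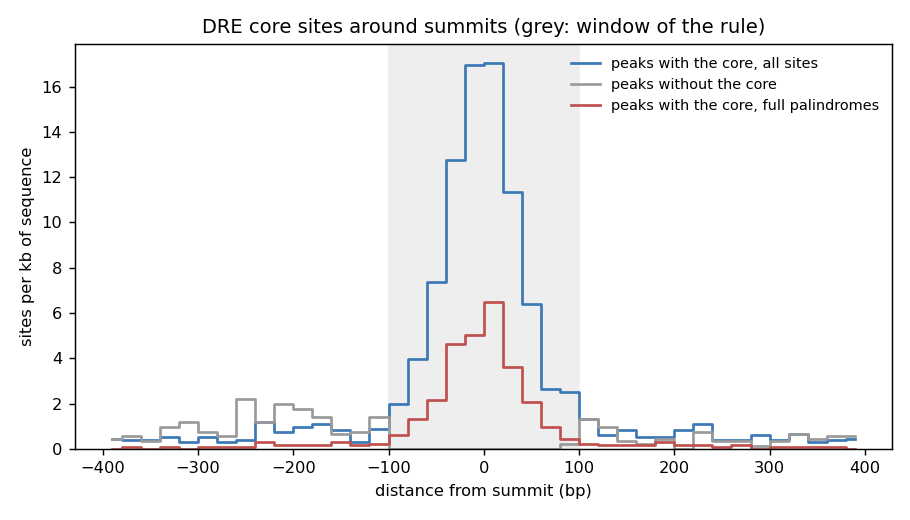
Core sites per kb of sequence (vertical axis) by distance from the summit in 20 bp bins (horizontal axis, bp), for the 678 peaks with the core (blue, all sites; red, full palindromes) and the 459 without (grey line). Sites peak at 17.0 per kb in the bins beside the summit; in the shaded window of 100 bp to either side the grey line is at or near 0 because the rule removed the sites.

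Outside the window, with both sides of the summit counted together, the shares of both groups overlapped. A site beyond the window and up to 300 bp from the summit was found at 21.98% (19.0 to 25.2) of the peaks with the core and at 24.4% (20.7 to 28.5) of those without, and these intervals overlap.

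Along the gene, sites lay just upstream of the start. Their median place was 37 bp upstream (interquartile range 65 to 13 bp upstream), 84.7% were upstream and 72.5% lay from 100 to 1 bp upstream. Full and partial sites had medians of 39 and 36 bp upstream. Summits of the 678 peaks had a median of 37.5 bp upstream, with 84.2% upstream and 87.5% within 100 bp of the start. Summits without the core were spread more widely, with a median of 31 bp upstream, 62.5% upstream and 59.9% within 100 bp. In the annotation, 68.4% of the summits with the core lay outside transcripts and 18.0% in an exon of the gene. For those without the core these shares were 41.6% and 37.9%. The windows around the summits had a median GC content of 37.8% with the core and 43.8% without it, and the core itself is AT-rich.

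**Figure D4:**
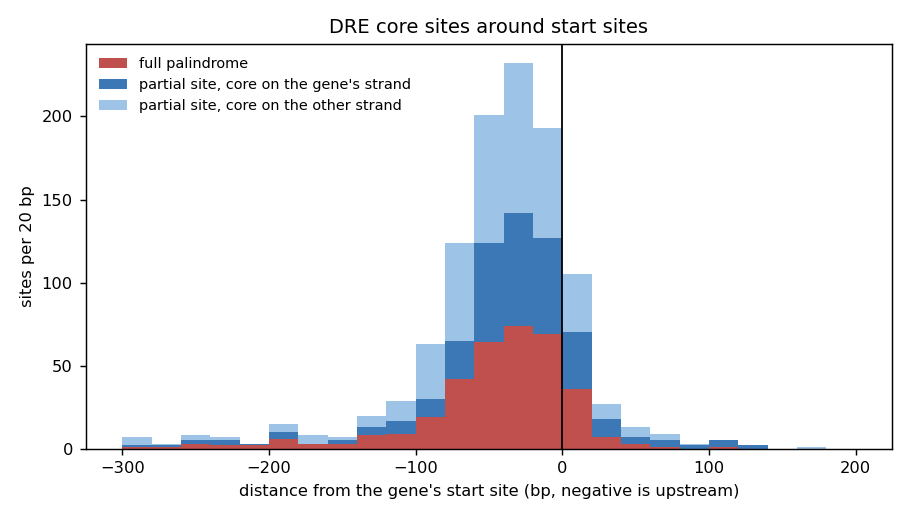
Number of core sites per 20 bp (vertical axis) by distance from the start of the nearest gene (horizontal axis, bp, negative is upstream), stacked by form and strand, for 1085 of the 1121 sites, those from 300 bp upstream to 200 bp downstream. Most sites lie within 100 bp upstream, and full and partial sites fall in the same range.

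Partial sites showed a modest lean in strand. The core lay on the strand of the gene at 319 of 752 partial sites (42.4%, 95% interval 38.9 to 46.0) and on the other strand at 433. Among peaks with a lone partial site it was 85 of 202 (42.1%, 35.5 to 49.0). The sites on the gene's strand lay a median of 33 bp upstream of the start, those on the other strand 41 bp.

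Neighbouring sites were close together. Over 443 pairs of neighbours, the distance between the CG steps of the cores had a median of 25 bp (interquartile range 14 to 41, range 4 to 175), and 84.0% were at most 50 bp apart. At single promoters with no peak, 134 pairs had a median of 21 bp. The pairs differed more in form than in distance: 1 site was full in 44.0% of pairs at the peaks and in 23.1% of the others, and both partial on the same strand in 26.2% and 41.0%.

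Of single distances, 8 bp was the most frequent (25 pairs, 5.64%, against 2.24% or 3 pairs at unbound promoters). A distance of 6 bp, at which the cores share letters, came next with 20 pairs (4.51%), and was more frequent at unbound promoters, with 14 pairs (10.4%). Promoters of both kinds are printed here because the distance can be read in the letters: heph and Hsp110 have sites 8 bp apart, and Dpm3 has sites 6 bp apart.
heph, chr3R:31985784-31985833, minus strand: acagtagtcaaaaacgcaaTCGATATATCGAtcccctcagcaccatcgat
Hsp110, chr3L:14036924-14037018, plus strand: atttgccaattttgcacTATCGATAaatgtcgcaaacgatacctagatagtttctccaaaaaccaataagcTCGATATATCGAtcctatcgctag
Dpm3, chr3R:13403066-13403133, minus strand: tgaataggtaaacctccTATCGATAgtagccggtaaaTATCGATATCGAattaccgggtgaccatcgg
heph, a polypyrimidine tract-binding protein, had a signal of 386, Hsp110, a chaperone, 646, and Dpm3, a subunit of dolichol-phosphate mannosyltransferase, 414. The 45 peaks with either distance had a median signal of 195, and the other 295 with more than 1 site had 225.

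Other promoter words were searched in the same windows on both strands. Motif 7, written here as CANCNCTA, was in 37.0% (33.5 to 40.7) of the peaks with the core, in 21.6% (18.1 to 25.6) of those without and in 10.8% of windows at all autosomal protein-coding starts. GAGAG, the word of GAGA factor, went the other way, with 12.7%, 28.5% and 25.02%. TATAAA was in 25.7%, 18.5% and 27.8%, in windows of differing GC content. The Motif 1 core GGTCACAC was in 9.59%, 7.84% and 5.64%, and the E-box CAGCTG in 14.9%, 15.3% and 13.8%. For those last words the intervals of peaks with and without the core overlapped, as they did for CAGGTA, a word of Zelda (4.28% and 4.36%), CTTTTC (15.04% and 14.8%) and TCAGT (28.9% and 31.4%). The 5-letter word CGATA is part of the core. It was in 35.3% of the peaks without the core and in 36.1% (5886 of 16298) of all start windows. These shares are not like for like. Of those 5886 start windows, 3120 held the core and so hold CGATA by definition, while the rule removed such windows from the peaks without the core. Among start windows without the core the share is therefore lower than 36.1%, and it is not given here. A match is only a match of letters, and no factor other than CG8478 was measured.

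In all, 707 autosomal protein-coding genes (6.02% of 11749) had a start within 500 bp of one of the 678 peaks. Of these genes, 51 also had a single promoter peak without the core, and for 37 of them it had the same nearest start as the core-holding peak. More than 1 gene lay within 500 bp at 42 of the peaks, and the nearest gene was known only by a CG number at 170 (25.1%). The gene lists below were taken from textbook knowledge and chosen with earlier results of these data known, so their counts are descriptions beside the 6.02%. For the other kinds of peak the counts stand beside those of the same 11749 genes. Of these, 452 (3.85%) had a single promoter peak without the core, and 1428 had a peak at a divergent pair.

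Genes reported to be driven by a DRE had the largest share of the 20 lists, with 6 of 12 (50%, 25.4 to 74.6): mtSSB, PolA1, PCNA, CycA, p53 and Gnf1. This list is defined by the DRE and the peaks were chosen by its core. A share above the 6.02% is therefore partly set by the rule and is not a result about the peaks. With replicate 1 left out, which leaves replicate 2's own list, the count was 5, and with replicate 2 left out it was 4. PolA1, which encodes the polymerising subunit of polymerase alpha-primase, had a signal of 485, with 243 and 236 in the replicates, over 2 full palindromes 59 and 6 bp upstream. PCNA, the sliding clamp of replication, had 263, with 108 and 156, over 1 full and 1 partial site. CycA, a mitotic cyclin, had 247, with 88.0 and 153. p53, the fly homologue of the tumour suppressor, had 183, and Gnf1, the large subunit of replication factor C, 97.1. Replicate 2 was the higher one at PCNA and CycA. The sites of CycA and Gnf1 are printed for comparison with PolA1 above.
CycA, chr3L:11833579-11833626, minus strand: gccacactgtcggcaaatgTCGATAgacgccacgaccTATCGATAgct
Gnf1, chr3R:4906539-4906580, plus strand: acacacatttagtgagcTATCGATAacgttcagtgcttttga

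DNA replication genes had 9 of 34 (26.5%, 14.6 to 43.1). The count was 5 with replicate 1 left out and 6 with replicate 2 left out. Beside PolA1, PCNA and Gnf1 the 9 were Top2, RfC3, Prim2, Orc6, Psf2 and Cdc6. Top2, DNA topoisomerase 2, had a signal of 243, with 108 and 145, over 1 full palindrome 50 bp upstream. Counting a gene under each kind of peak it had, 7 of the 34 had a single promoter peak without the core. A peak at a divergent pair was found for 8 of them, against 1428 of all 11749 genes. A promoter peak of any kind was found for 21, and the count over all genes for that is not given here. Over all autosomal protein-coding genes, 3.85% had a single promoter peak without the core. The share of replication genes was above that of all genes for single promoter peaks with and without the core. For peaks with the core it is partly set by the rule, since PolA1, PCNA and Gnf1 are also reported DRE-driven genes. RfC3 had both kinds of single promoter peak. The signals of the 9 ran down to 58.1 at Cdc6, which loads the replicative helicase, so this list lay on both sides of the median of 189.

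Cell cycle genes had 7 of 28 (25%, 12.7 to 43.4). Cdk2, the partner of cyclin E, had 348, with 149 and 207, over 1 full palindrome. Cdk4, the partner of cyclin D, had 318, with 204 and 107. CycB, a mitotic cyclin, had 308, with 186 and 123, over 3 partial sites of which the farthest was 189 bp upstream. The others were BubR1, CycA, Dp and mad2. Replicate 2 was the higher one at Cdk2 and the lower one at Cdk4.

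Insulator and housekeeping promoter factors had 4 of 16 (25%, 10.2 to 49.5). mod(mdg4), a BTB-domain insulator protein, had 311, with 183 and 129.7, over 1 full and 1 partial site. pita, a zinc-finger architectural protein, had 267 at the higher of its 2 peaks. BEAF-32 had 249, with 120.1 and 115.4, over a partial site 374 bp downstream of the start. It also had a single promoter peak without the core, with its summit 23 bp upstream of a start. The signal there was 170, with 81.7 in replicate 1 and 131 in replicate 2. CTCF had 207, with 116 and 94.1, over 1 full palindrome 17 bp upstream. A peak at a divergent pair was found for 8 of the 16. Promoters of mod(mdg4) and CTCF are shown because their products are themselves architectural proteins.
mod(mdg4), chr3R:21377431-21377494, minus strand: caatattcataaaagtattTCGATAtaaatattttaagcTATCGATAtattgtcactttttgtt
CTCF, chr3L:7356714-7356751, minus strand: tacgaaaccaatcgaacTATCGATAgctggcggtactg

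Genes of protein synthesis and breakdown had shares between 6.90% and 19.1%. Translation factors had 9 of 47 (19.1%), led by eIF3f1 with 547, eEF2 with 455 and eEF1gamma with 380.04. Cytoplasmic ribosomal proteins had 11 of 72 (15.3%), led by RpS2 with 733, RpS7 with 589 and RpS24 with 574. Proteasome subunits had 6 of 42 (14.3%), led by Rpn12 with 208, Rpt1 with 144 and Prosalpha3 with 103. Their count was 4 with replicate 1 left out and 3 with replicate 2 left out. Mitochondrial ribosomal proteins had 5 of 62 (8.06%), led by mRpL4 with 667, mRpL10 with 310.5 and mRpS29 with 224, and 20 had a peak at a divergent pair. The 5 became 3 with either replicate left out. Aminoacyl-tRNA synthetases had 2 of 29 (6.90%), AspRS-m with 337 and AlaRS with 118. Of the 6 proteasome subunits 1 lay above the median of 189. The ribosomal and translation genes named here also lay above it, but they are the 3 highest of each list, so this is partly set by the choice.

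Polycomb and trithorax group genes had 5 of 32 (15.6%, 6.86 to 31.8). kis, a chromatin remodeller, had 527, with 279.6 and 250.3. Scm had 328 and Utx, a histone demethylase, 323 at the higher of its 2 peaks. The others were Pc and kto. Cohesin and condensin genes had 2 of 17, SMC1 and Cap-G, or 1 with replicate 1 left out, and 5 had a divergent peak. Spliceosome proteins had 3 of 30 (10%), Sf3a1 with 356, Sf3b3 with 178 and U2A with 152, while 15 had a divergent peak.

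Lists near or below 6.02% were oxidative phosphorylation with 4 of 74 (5.41%), Mediator with 1 of 27 (kto), general transcription factors with 1 of 27 (Tfb1, 385) and early patterning genes with 1 of 27. ND-B14.5B with 169, ND-15 with 149 and COX4 with 141 led the first of these. The patterning gene was D, a Sox-family factor, with a peak of 29.2; of the 678 peaks, those of mRpL36 and Smg5 were lower. With either replicate left out, the count of patterning genes was 0 and that of general transcription factors 2. Peaks at divergent pairs, which the rule leaves out, were found for 10 of the 27 Mediator genes and 10 of the 27 general transcription factors. They were found for 13 of the 74 oxidative phosphorylation genes and 0 of the 27 patterning genes, against 1428 of all 11749. mtSSB was the single gene of 11 for mitochondrial DNA maintenance. No gene of 12 in the Hox complexes had one, which allows up to 25% by the rule of 3 counts. None of 91 cuticle genes did (up to 3.30%), and none of 154 chemosensory receptors (up to 1.95%). Hox genes were not without peaks: 3 of the 12 had a single promoter peak without the core, against 3.85% of all autosomal protein-coding genes.

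**Figure D5:**
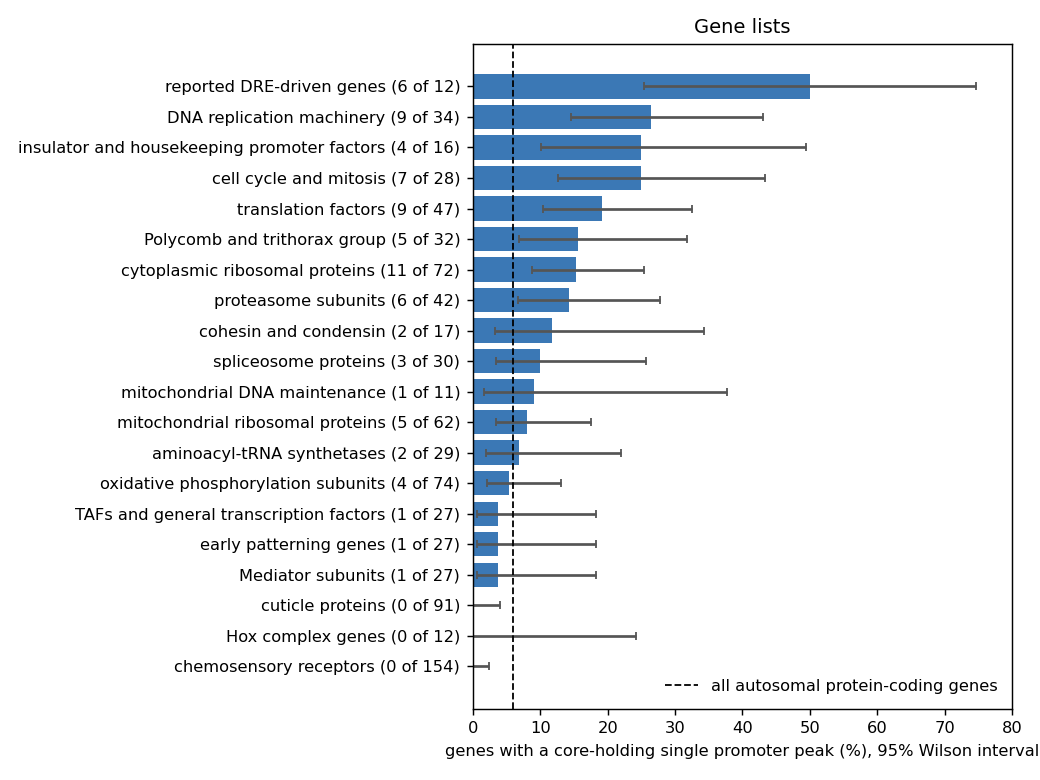
Share of the autosomal genes of each list with one of the 678 peaks (horizontal axis, %), with 95% Wilson intervals; counts stand beside each name and the dashed line is the 6.02% of all autosomal protein-coding genes. Reported DRE-driven genes reach 50%, a share partly set by the rule because the peaks were chosen by the DRE core. Cuticle, Hox and chemosensory genes are at 0.

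At the limits of the rule, signals inside and outside were of similar size. The 2 peaks just inside 500 bp were at Rcd2, 500 bp upstream with a signal of 179, and CG43066, 493 bp upstream with 127. The 2 core-holding peaks just outside were at PI31, 509 bp upstream with 176, and RpL27A, 511 bp upstream with 111. The lowest signal of the 678 was 3.53, at Smg5, a factor of nonsense-mediated decay. The ranked signals at the same place were 96.9 in replicate 1 and 147 in replicate 2. This peak overlaps another conservative peak at the same start, without the core, which has a conservative signal of 240.2 and the same replicate values. A conservative signal under 20 was found at 2 of the 678 peaks and at 36 of the 459 without the core, and 2 and 35 of these overlapped a conservative peak of higher signal.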

How the data were processed

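The deposited data are peak lists in dm6 coordinates, per the labels. Each entry has a signal given by the authors' peak caller, whose scale is not stated; for the aligner and the caller, the sources used here give neither name nor version. Depth is unknown, since the lists hold no read counts. Of entries that share both ends 1 was kept, the one of higher signal, which took the conservative list from 2948 to 2904 peaks on the 7 main arms, replicate 1's from 2554 to 2520 and replicate 2's from 2250 to 2225. All peak ends lay within the chromosome lengths of the RefSeq Release 6 sequence. Start sites came from Ensembl release 115, and the nearest start names the gene. A site's place is that of the CG step of its core.

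A replicate's signal at a peak is the highest in its own ranked list among entries overlapping it, including entries under the threshold; 4 of the 678 peaks had none in replicate 1 and 1 had none in replicate 2. Conservative peaks that overlap each other can take their value from the same ranked entry. No test was run: 1 group gives no contrast between conditions, and peaks are not replicates. Shares have 95% Wilson intervals, which cover counting error only and not the spread between embryos.

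The members, motifs and gene lists were chosen with earlier results of these data known. Counts by promoter sites, octamers, unbound promoters, groups by signal and arms were chosen after seeing the data. The rule for named genes took the 15 highest peaks, the 8 with most sites, the 5 highest with at least 2 full palindromes, the 3 highest of each list, the peaks at the 500 bp limit and the lowest; other genes named were chosen after their values were seen. The gene at 1 of the highest peaks is not reported here. Of the list entries, 22 matched no gene. The site search was tested on simulated data. The tools were pandas 2.3.3, NumPy 2.4.6 and matplotlib 3.10.9 in Python 3.11.15, with SciPy 1.17.1.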

Additional observations from a re-analysis of the deposited data

How the results depend on the processing

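The shares, medians and counts that follow were recomputed with 1 choice changed at a time. The log2 ratio of signals and the place of the nearest site from the start can change sign, and neither did. The other values have no direction that could reverse. Spacing, strand, octamers, other motifs, outer sites, GC content, signal by site number and the signal of full against partial sites were not recomputed under these alternatives, beyond the subsets and replicate values given with them. Where a value moved, the cause was not tested, beyond what the construction of the alternative implies. The share of single promoter peaks with the core (59.6%) was 63.1% to 67.1% in a replicate's own list, 78.9% in the upper 50% by signal, 50.5% and 65.5% with windows of 50 and 200 bp to either side of the summit, 62.5% with 5′-most starts, 73.9% with the 5-letter core, 29.3% with the full palindrome alone and 63.0% with divergent pairs kept. In the same terms, the share with more than 1 site (50.1%) was 57.8% in the upper 50%, 42.5% with 50 bp, 71.5% with 5 letters, 10.5% with the palindrome alone and 45.8% with divergent pairs. The share with a full palindrome (49.1%) was 39.6% with 5 letters, and is 100% by construction with the palindrome alone.

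The median distance of the nearest site from the summit (17.5 bp) was 16 to 18 bp in the replicates' lists, 14 in the upper 50%, 14 and 20 with 50 and 200 bp, 15 with 5 letters, 22 with the palindrome alone and 20 with divergent pairs. The place of that site (-37 bp from the start) was the same in both replicates, so any shift counted as a move: -38 in the upper 50%, with a 1000 bp promoter limit, with 200 bp windows, with the peak midpoint and with the palindrome alone, -36 with a 250 bp limit, with 5′-most starts and without overlapping weaker peaks, -36.5 with 50 bp, -37.5 with 5 letters and -34 with divergent pairs. The log2 ratio of signals with and without the core (1.32) was 0.95 to 1.05 in the replicates' lists, 0.19 in the upper 50%, 1.20 with 200 bp, 1.21 without overlapping weaker peaks (chosen after seeing the data), 0.88 with the palindrome alone and 1.10 with divergent pairs. The share in both replicates' lists (78.2%) was 96.9% in the upper 50% and 73.6% when 50% of the peak had to be covered. The number of listed genes (71) was 41 with the palindrome alone and 177 with divergent pairs.

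For the share of promoters with a peak, the alternatives were chosen after seeing the data. With 0 sites (5.46%) it was 3.91% to 3.95% in the replicates' lists, 6.21% in the larger optimal list and 4.32% for peaks within 250 bp. With 1 site (30.6%) it was 26.2% to 27.0% in the replicates' lists and 23.5% with a window from 300 bp upstream. With 2 sites (66.4%) it was 56.0% to 60.1% and 55.9%, and with 3 sites (91.5%) 89.0% to 90.2% and 82.8%, in the same order of settings. The order from 0 to 3 sites held in each.

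No paired analysis was possible because there is 1 group. The lists that define the peaks are thresholded and their depth is unknown, so a promoter without a peak is one with no peak at this depth. Overlapping annotations and several starts per gene can shift which gene is nearest.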
